A study of Mus musculus with 22 samples.

Results

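The nuclear-encoded subunits of oxidative phosphorylation were followed across 4 groups of mouse splenic cells. Oxidative phosphorylation is carried out by 5 protein complexes of the inner mitochondrial membrane. Complex I takes electrons from NADH and complex II takes them from succinate, complex III passes them to cytochrome c, and complex IV hands them to oxygen. Complexes I, III and IV pump protons, and complex V, the ATP synthase, uses the proton gradient to make ATP. Complex II is made of nuclear gene products alone, while the other complexes also hold subunits encoded by mitochondrial DNA. Macrophages are known to shift between oxidative and glycolytic metabolism with their state of activation.

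Members were the genes whose symbols start with Ndufa, Ndufb, Ndufc, Ndufs, Ndufv, Sdha, Sdhb, Sdhc, Sdhd, Uqcr, Cox4i, Cox5, Cox6, Cox7, Cox8 or Atp5. Of the 55487 genes in the tables, 111 had such a symbol. Removing 9 pseudogenes named with -ps and 8 complex I assembly factors named Ndufaf left 94 genes. Of these, 83 encode subunits: 36 of complex I, 4 of complex II, 8 of complex III, 19 of complex IV and 16 of complex V. Ndufa4 and Ndufa4l2 were counted with complex IV, to which the Ndufa4 protein is now assigned. The other 11 were kept apart as no subunit genes: 6 assembly or related factors (Sdhaf1 to Sdhaf4, Atp5s and Cox7a2l), 4 processed pseudogenes and 1 gene model that overlaps Atp5o. This model had 0 counts in every library, and 100% of its exon bases are shared with other genes.

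Bulk RNA was sequenced from 22 libraries of splenic cells of wild-type male C57BL/6 mice. Macrophages given oxidised low-density lipoprotein (ox-LDL, a modified lipoprotein that loads phagocytes with lipid) at 50 µg/mL for 24 hours had 6 libraries, and macrophages given vehicle had 5. Monocytes given the same ox-LDL dose had 5 libraries, and monocytes given vehicle had 6. The macrophages had been made from splenic monocytes in culture with the phorbol ester PMA, an activator of protein kinase C, at 200 ng/mL for 5 days. Monocytes had no PMA, so PMA, time in culture and cell type cannot be told apart. The libraries were made from 10 ng of polyadenylated RNA with a low-input kit and held 37330389 to 50257111 counts each. The labels do not say whether replicates came from separate mice or cultures, so p-values measure only the spread between these libraries, which may be technical.

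The labelled cell types were checked against marker genes. Macrophage markers summed to between 58309 and 80499 CPM (counts scaled to a common library total) in macrophage libraries and to between 10893 and 20208 CPM in monocyte libraries. The 12 monocyte markers, however, summed higher in macrophages (2856 to 7373 CPM) than in monocytes (911 to 2174 CPM). Monocyte libraries also carried dendritic cell markers at 20827 to 34995 CPM, against 413 to 1385 CPM in macrophages. The monocyte libraries fell into 3 sets that cut across treatment. Neutrophil markers passed 2 times the monocyte median in 4 libraries (ox-LDL replicates 10 and 11, vehicle replicates 5 and 6) and ran from 5578 to 50761 CPM over all monocytes, against 133 to 341 CPM in macrophages. Erythroid markers were under 0.5 times the monocyte median in 3 libraries (ox-LDL replicate 7, vehicle replicates 1 and 2), and ran from 495 to 14559 CPM over all monocytes, against 83.6 to 189 CPM in macrophages. In macrophages the neutrophil gene Ctsg and the erythroid gene Car1 were at 0. In such bulk samples, fewer cells of a type and less RNA per cell cannot be told apart, and the part of these other cells in the results below was not tested.

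Libraries also differed in how high the whole family stood. Vehicle macrophage replicate A was the highest of its group in 69 of 79 detected subunits, and vehicle monocyte replicate 5 in 65 of 79. In ox-LDL monocytes, replicate 11 was the highest in 51 and replicate 10 the lowest in 46. Cytosolic ribosomal protein genes were also highest in replicates A and 5: their sum reached 6321 CPM in replicate A, against 4795 to 5052 CPM in replicates B to E, and 9797 CPM in replicate 5, against 5298 to 7584 CPM in the other vehicle monocytes. In ox-LDL monocytes this sum was highest in replicate 11 (7882 CPM), but replicate 10, at 5728 CPM, stood above replicates 7 (5324 CPM) and 9 (5565 CPM). Within a group the median coefficient of variation of 74 subunits with at least 5 CPM was 7.65% in ox-LDL macrophages, 11.2% in vehicle macrophages, 18.8% in ox-LDL monocytes and 20.6% in vehicle monocytes.

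Promoter sequence was compared because 3 factors are known to act on many nuclear genes of respiration: NRF1, the ETS factor GABP (also called NRF2) and YY1. Windows from 250 bases before to 50 bases after a RefSeq start (build GRCm38.p6) were found for 66 of the 83 subunit genes, 71 windows in all. Each was searched on both strands for the letters GCGCATGC or GCATGCGC on the other strand (the core of the NRF1 word), ACTTCCGG or CCGGAAGT on the other strand (GABP), and AAGATGGCG or CGCCATCTT (YY1). Matches of different words overlapped in 0 of the subunits' windows, while the NRF1 letters overlapped their own other-strand form in 5. At least 1 word was present in 29.6% of the subunits' windows (21 of 71), against 7.57% of all 32851 windows in the table. By word, the shares were 14.1% against 2.71% for NRF1, 7.04% against 3.89% for GABP and 9.86% against 1.4% for YY1.

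The 6 windows printed here are those of subunits that differed between macrophages and monocytes and that hold a word wholly within 120 bases before the start, shown so that the words can be seen beside the direction of change. Each is written 5′ to 3′ on the gene's strand and ends at the base before the start, with the word in capitals (10 letters where both NRF1 forms overlap). The NRF1 word stands in Atp5g2 (chr15:102671048-102671167, minus strand), 42 bases before the start, and in Ndufa11 (chr17:56717642-56717761, plus strand), 60 bases before it. The GABP word stands in Atp5h (chr11:115419920-115420039, minus strand), 39 bases before the start, in Uqcrh (chr4:116075071-116075190, minus strand), 11 bases before it, and on the other strand in Uqcr11 (chr10:80406822-80406941, minus strand), 66 bases before it. The YY1 word stands in a window of Atp5j (chr16:84834977-84835096, minus strand), 88 bases before the start, and another window of Atp5j held no word. The printed windows of Atp5j and Atp5g2 lie within the annotated genes, which reach to 84835625 and 102672352 at their 5′ ends.
Atp5g2: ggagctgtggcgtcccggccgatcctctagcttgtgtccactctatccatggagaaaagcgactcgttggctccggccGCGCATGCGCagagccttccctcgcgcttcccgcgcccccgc
Ndufa11: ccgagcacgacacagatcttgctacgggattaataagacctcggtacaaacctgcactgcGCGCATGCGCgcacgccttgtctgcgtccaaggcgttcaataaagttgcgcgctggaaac
Atp5h: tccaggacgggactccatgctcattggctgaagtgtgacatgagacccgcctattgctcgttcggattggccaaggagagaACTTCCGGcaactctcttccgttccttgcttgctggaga
Uqcrh: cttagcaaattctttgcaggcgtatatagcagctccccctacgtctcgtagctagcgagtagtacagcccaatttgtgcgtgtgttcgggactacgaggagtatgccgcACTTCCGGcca
Uqcr11: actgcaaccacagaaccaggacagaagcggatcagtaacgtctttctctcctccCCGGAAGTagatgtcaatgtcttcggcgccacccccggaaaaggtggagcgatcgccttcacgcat
Atp5j: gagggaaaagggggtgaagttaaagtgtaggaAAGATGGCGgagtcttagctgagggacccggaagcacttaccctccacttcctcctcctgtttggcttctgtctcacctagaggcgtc
Atp5h, Uqcrh and Atp5j were lower in macrophages under both treatments, Ndufa11 was lower and Atp5g2 higher with ox-LDL, and Uqcr11 was higher with vehicle. Among the printed windows the GABP word thus stood before genes of both directions. The NRF1 word did so only through Ndufa11 and Atp5g2, each called with ox-LDL alone. Over the whole searched windows, NRF1 letters were in 0 of 8 of the subunits higher under both treatments and 1 of 12 of those lower under both. The searched window of Uqcr11 also held the NRF1 word, not wholly within the printed bases. A word was present in 3 of 8 windows (7 genes) of the subunits higher in macrophages under both treatments, in 5 of 12 windows (11 genes) of those lower under both, and in 8 of 36 windows (34 genes) of those called under neither. A match describes the letters only, and binding was not measured.

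Transcripts of the subunits were abundant, with a median of 99.2 TPM (a level per length of gene, scaled to a common total) over the 79 detected genes and all libraries. Per length, the lead genes of each complex were Cox6a1 (785 TPM), Cox4i1 (673 TPM) and Cox8a (609 TPM) of cytochrome c oxidase, and Atp5a1 (613 TPM) and Atp5b (514 TPM), the α and β subunits that form the catalytic head of the ATP synthase. Sdhd, a membrane anchor of complex II, had 423 TPM, Ndufa2, an accessory subunit of the matrix arm of complex I, had 337 TPM, and Uqcr10, a small subunit of complex III, had 289.5 TPM. The median over members was 269.5 TPM in complex II, 133 TPM in complex III, 103 TPM in complex IV, 88.1 TPM in complex I and 76.2 TPM in complex V. The lowest members were Ndufb2 (1.97 TPM) in complex I, Sdhc (99.2 TPM) in complex II, Uqcrc2 (85.3 TPM) in complex III, Cox4i2 (0.605 TPM) in complex IV and Atp5l (14.7 TPM) in complex V. The gene length behind TPM is that of all annotated exons together, which was 5628 bases for Ndufb2 and 6443 bases for Atp5l, and a long annotated exon length lowers TPM for the same count. Cox7b2, Cox8b, Cox8c and Ndufa4l2 had too few counts to be tested.

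The complexes were compared by summed CPM, which sets a complex against itself across groups. Complex II, the succinate dehydrogenase that also belongs to the citric acid cycle, summed to 1083 ± 64.7 CPM in ox-LDL macrophages, 1023 ± 57.7 CPM in vehicle macrophages, 878 ± 112 CPM in ox-LDL monocytes and 775 ± 34.8 CPM in vehicle monocytes (mean ± SD; n = 6, 5, 5 and 6). Within each treatment the macrophage libraries stood above the monocyte libraries in CPM (994 to 1166 against 695 to 984 CPM with ox-LDL, 933 to 1088 against 732 to 820 CPM with vehicle), and the lowest vehicle macrophage library lay within the range of ox-LDL monocytes. In summed TPM the ranges overlapped, at 1109 to 1238 in macrophages against 790 to 1192 in monocytes with ox-LDL. With vehicle they also overlapped, at 1088 to 1163 against 747 to 1111 TPM. The sum over all complexes was 7823 ± 242, 7408 ± 591, 7516 ± 1029 and 7011 ± 864 CPM in the same order of groups, and all 4 groups overlapped. As a share of each library's counts the subunits made up 0.647% to 0.877%. The ratio of complex II to complex V was 0.405 ± 0.019 in ox-LDL macrophages and 0.416 ± 0.018 in vehicle macrophages, against 0.341 ± 0.038 in ox-LDL monocytes and 0.309 ± 0.031 in vehicle monocytes. Macrophage libraries ran from 0.376 to 0.439 and monocyte libraries from 0.268 to 0.392 in this ratio.

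**Figure D1:**
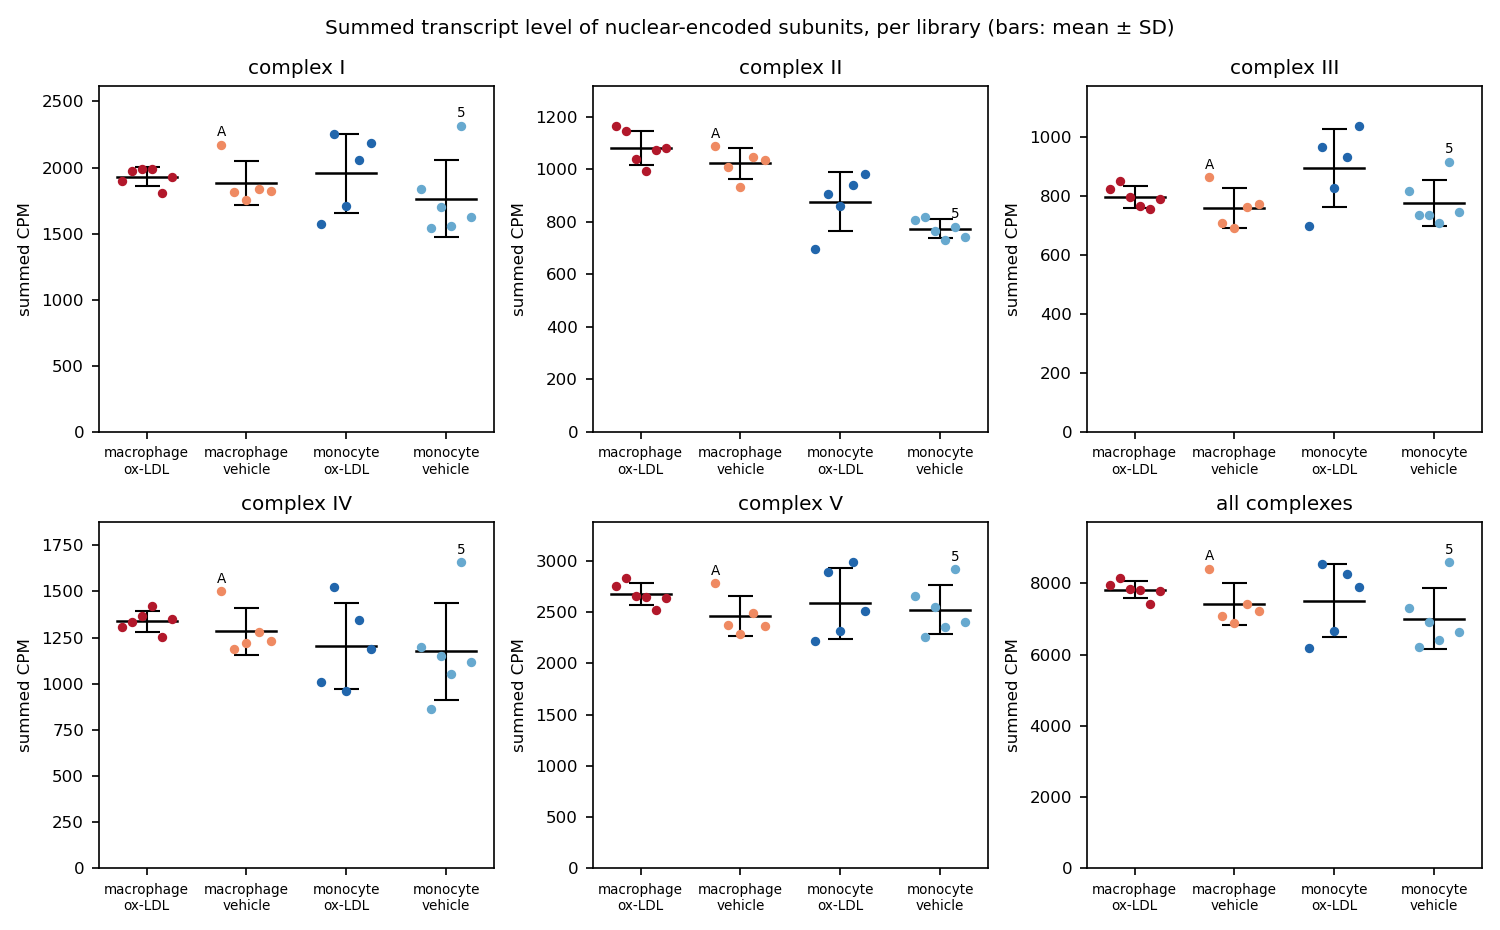
Summed CPM of the nuclear-encoded subunits of each complex and of all complexes (y axis) in each library (points) of the 4 groups (x axis), with the mean and SD as bars; A and 5 mark vehicle macrophage replicate A and vehicle monocyte replicate 5. Complex II stands higher in macrophages (933 to 1166 CPM) than in monocytes (695 to 984 CPM), while the other complexes and the total overlap widely, and replicates A and 5 stand at the top of their groups in most panels.

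Macrophages and monocytes differed in single subunits, in both directions. With ox-LDL, 12 subunits were higher and 19 lower in macrophages of 78 tested. With vehicle, 12 were higher and 17 lower of 79 tested. A gene is called here when its adjusted p is under 0.05 in edgeR's quasi-likelihood test with Benjamini-Hochberg adjustment over all genes tested. The share of subunits called was 39.7% with ox-LDL, where 65.4% of 15825 genes were called (30.3% higher and 35% lower), and 36.7% with vehicle, where 63.7% of 16288 genes were called (28.5% higher and 35.1% lower). The median log2 fold change of the subunits, macrophages over monocytes, was -0.05 with ox-LDL and 0.05 with vehicle, against -0.07 and -0.09 over all genes tested. The sign of these medians was not stable: leaving out a library gave -0.13 (without monocyte replicate 10) to 0.01 (without monocyte replicate 11) with ox-LDL and -0.02 (without monocyte replicate 2) to 0.18 (without monocyte replicate 5) with vehicle, and scaling by total counts gave -0.14 with ox-LDL and -0.03 with vehicle. Groups did not overlap in 16 subunits with ox-LDL (7 higher, 9 lower), where 49.5% of all genes did not (24.6% higher, 24.9% lower), and in 9 with vehicle (6 higher, 3 lower), where 49.3% of all genes did not (24.4% higher, 24.9% lower).

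The cell type counts with vehicle depended on monocyte replicate 5. Without it 27 subunits were higher and 14 lower, and without all 4 neutrophil-high monocyte libraries 21 were higher and 15 lower. Without the 3 erythroid-low libraries 11 were higher and 16 lower, and without macrophage replicate C 14 were higher and 11 lower. Scaling by total counts gave 7 higher and 23 lower with vehicle, and 9 higher and 24 lower with ox-LDL. With ox-LDL, leaving out a library gave 10 to 14 higher and 17 to 25 lower. The 2 comparisons share no library. Over all genes tested 65.4% were called with ox-LDL and 63.7% with vehicle, and how many were called the same way in both was not counted. Of the 78 subunits tested in both, 23 were called in the same direction, which is 74.2% of those called with ox-LDL and 79.3% of those called with vehicle. Of these, 9 were higher (Ndufs1, Ndufs3, Ndufs7, Ndufv3, Ndufa5, Ndufb2, Sdha, Sdhc and Cox8a) and 14 lower (Ndufs8, Ndufs4, Ndufa3, Ndufb4, Ndufb7, Uqcrh, Uqcrc2, Cox5b, Cox6a2, Cox6b2, Atp5h, Atp5l, Atp5f1 and Atp5j). None was called in opposite directions, and 41 were called in neither.

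**Figure D2:**
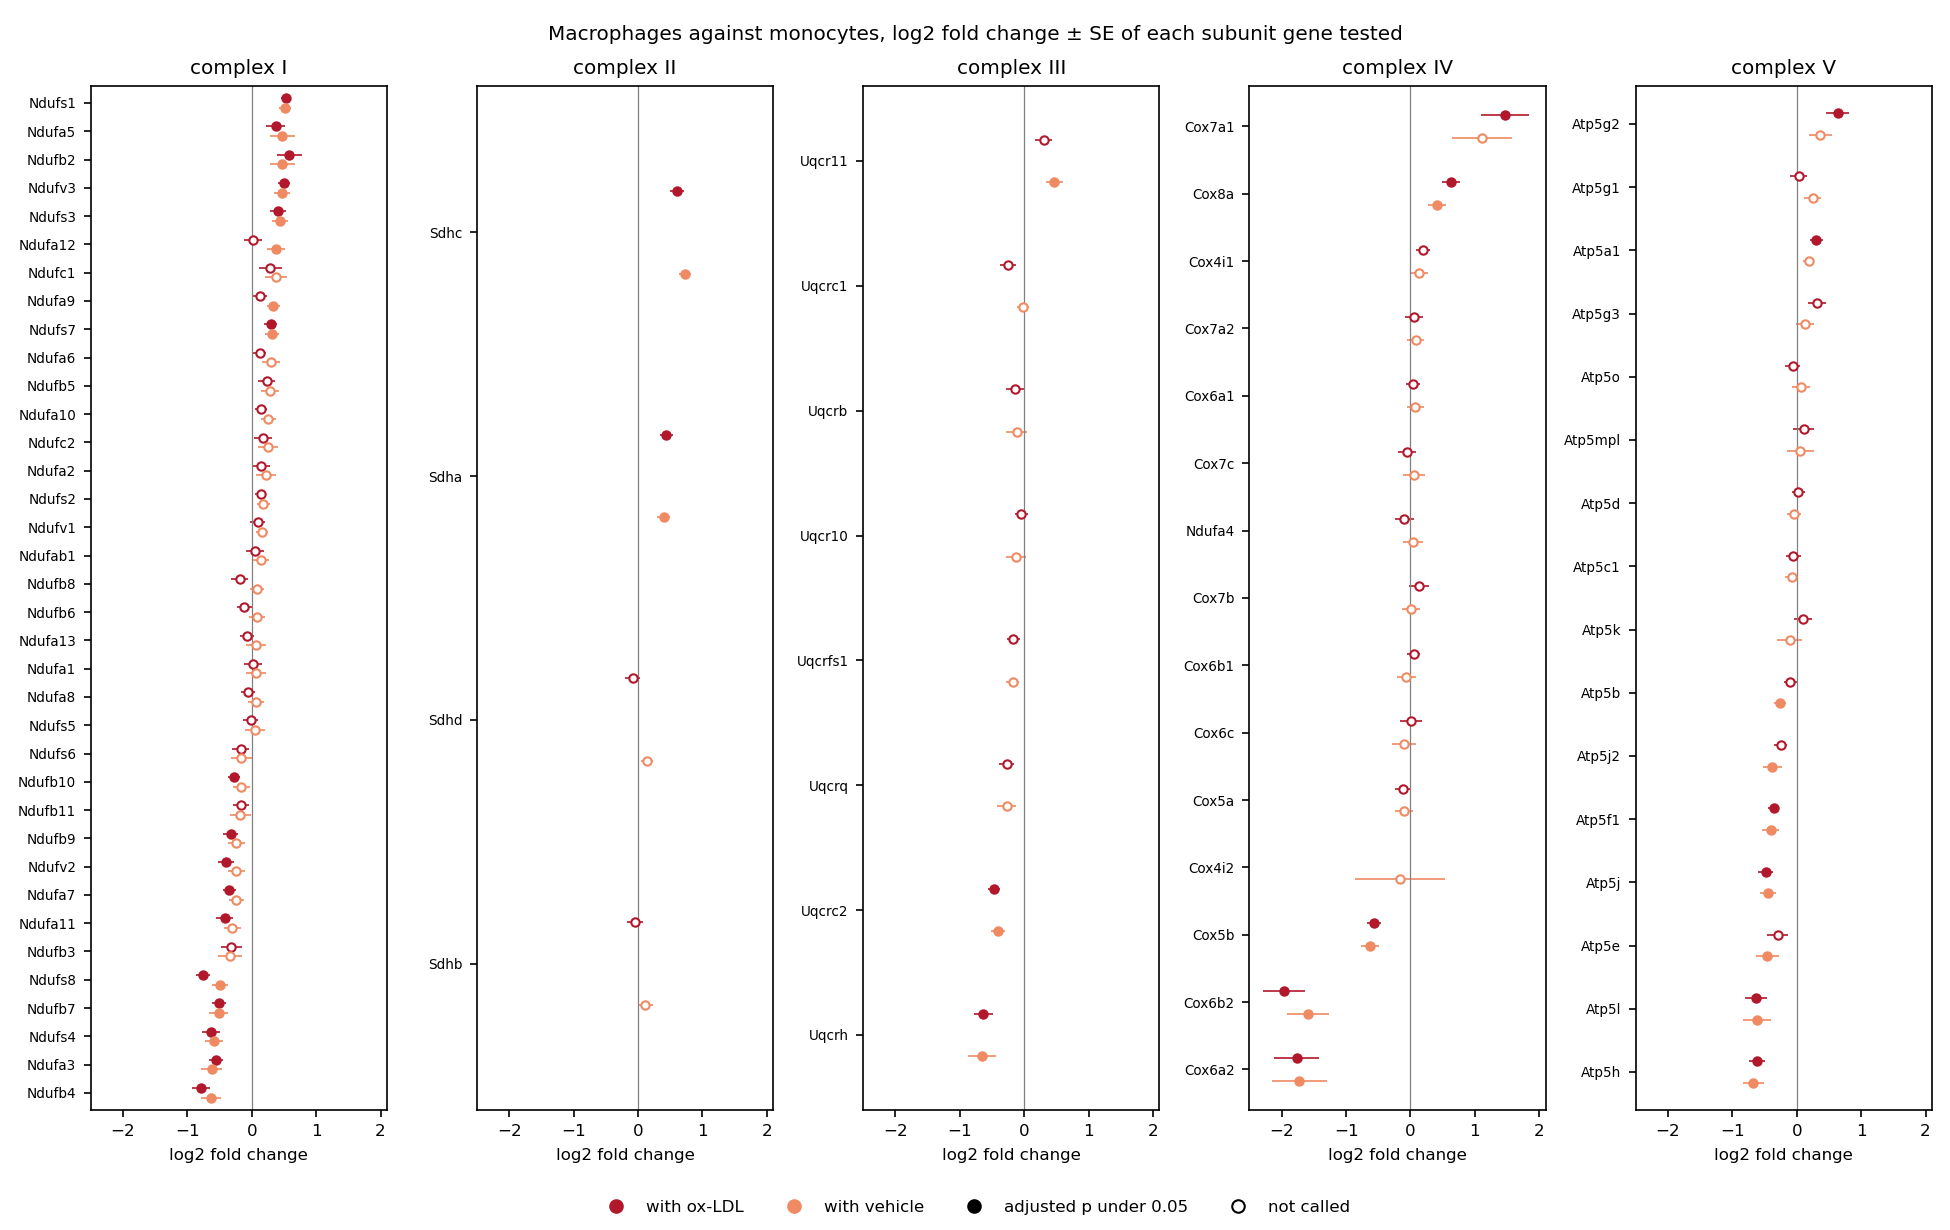
Log2 fold change of each tested subunit gene, macrophages over monocytes (x axis, SE as bars), by complex, in dark red with ox-LDL and in orange with vehicle; filled points have an adjusted p under 0.05. In complex II only Sdhc and Sdha are filled, both above 0, while in complex I filled points lie on both sides, from Ndufb2 (0.58 with ox-LDL) to Ndufb4 (-0.78 with ox-LDL).

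In complex II the catalytic subunit and 1 of the 2 membrane anchors were higher in macrophages. That is 50% of its 4 subunits called under each treatment, below the 65.4% with ox-LDL and 63.7% with vehicle over all genes. Sdhc (ENSMUSG00000058076, chr1:171127165-171150603, minus strand) anchors the enzyme in the membrane and helps form the ubiquinone site. It had 134, 155 and 161 CPM in ox-LDL macrophages (lowest, median and highest of 6 libraries, as for every group of 6 below) and 87.0, 112, 99.5, 75.9 and 110.3 CPM in ox-LDL monocytes (replicates 7 to 11 in order, as below). With vehicle it had 132, 138, 137, 155 and 136 CPM in macrophages (replicates A to E in order, as below) and 69.6, 75.6 and 94.7 CPM in monocytes. Every macrophage library stood above every monocyte library. The log2 fold change, macrophages over monocytes, was 0.60 ± 0.11 with ox-LDL (adjusted p = 0.000244) and 0.73 ± 0.10 with vehicle (adjusted p = 1.50e-05).

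Sdha (ENSMUSG00000021577, chr13:74322254-74350280, minus strand), the flavoprotein that oxidises succinate, had 448, 532 and 556 CPM in ox-LDL macrophages and 379, 391, 408, 321 and 329 CPM in ox-LDL monocytes. With vehicle, Sdha had 479, 470.1, 442, 499.7 and 504 CPM in macrophages and 295, 344 and 387 CPM in monocytes. Here too no monocyte library reached a macrophage library, and replicate 5 was the lowest of the vehicle monocytes. The log2 fold change was 0.44 ± 0.10 with ox-LDL (adjusted p = 0.00176) and 0.40 ± 0.10 with vehicle (adjusted p = 0.00278). Sdhb, the iron-sulfur subunit, averaged 215 ± 21.8 CPM in ox-LDL macrophages against 214 ± 38.2 CPM in ox-LDL monocytes, and 211 ± 28.0 CPM in vehicle macrophages against 185 ± 24.1 CPM in vehicle monocytes (SD). Sdhd, the other anchor, averaged 198 ± 11.2 against 202 ± 35.2 CPM with ox-LDL and 193 ± 16.9 against 167 ± 12.8 CPM with vehicle, macrophages before monocytes. Neither passed the test under either treatment (adjusted p = 0.774 and 0.429 for Sdhb, 0.532 and 0.217 for Sdhd, ox-LDL before vehicle). Sdhd reached an adjusted p of 0.0435 with vehicle when monocyte replicate 5 was left out.

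Core subunits of complex I bind the cofactors that carry electrons or lie near the ubiquinone site. Of the 7 nuclear-encoded core subunits, 3 were higher and 2 lower in macrophages with ox-LDL, and 3 were higher and 1 lower with vehicle. That is 71.4% and 57.1% called, near the 65.4% and 63.7% over all genes. Ndufs1 (ENSMUSG00000025968, chr1:63143596-63176833, minus strand) is the largest iron-sulfur subunit of the matrix arm, and it was named after its values were seen. It had 73.3, 78.4 and 81.5 CPM in ox-LDL macrophages and 50.3, 49.2, 59.6, 46.6 and 52.1 CPM in ox-LDL monocytes. With vehicle, Ndufs1 had 70.1, 63.4, 68.2, 73.3 and 60.9 CPM in macrophages and 40.6, 43.0 and 51.0 CPM in monocytes. The groups did not overlap under either treatment. On the log2 scale the change was 0.53 ± 0.08 with ox-LDL (adjusted p = 8.33e-05) and 0.52 ± 0.09 with vehicle (adjusted p = 0.000253).

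Ndufs8 (ENSMUSG00000059734, chr19:3908863-3912774, minus strand), an iron-sulfur core subunit near the ubiquinone site, went the other way. It had 63.4, 75.5 and 79.5 CPM in ox-LDL macrophages and 114, 128, 139, 92.6 and 124 CPM in ox-LDL monocytes. With vehicle, Ndufs8 had 89.1, 71.4, 64.2, 73.5 and 84.8 CPM in macrophages and 89.8, 97.7 and 131 CPM in monocytes. Every macrophage library lay below every monocyte library of the same treatment, by a narrow margin with vehicle, where macrophage replicate A was at 89.1 CPM. This came to a log2 fold change of -0.75 ± 0.11 with ox-LDL (adjusted p = 3.71e-05) and -0.50 ± 0.13 with vehicle (adjusted p = 0.00329). The other core subunits called under both treatments were Ndufs3 (0.41 with ox-LDL, 0.44 with vehicle) and Ndufs7 (0.29 and 0.31), core subunits near the ubiquinone site, and Ndufv2, of the NADH-oxidising tip, was lower with ox-LDL alone (-0.40, adjusted p = 0.0119; -0.24, adjusted p = 0.127 with vehicle).

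Among the 29 accessory subunits of complex I, 3 were higher and 8 lower in macrophages with ox-LDL, and 5 were higher and 4 lower with vehicle. That is 37.9% and 31% called, below the 65.4% and 63.7% over all genes. Ndufb4 (ENSMUSG00000022820, chr16:37647170-37654453, minus strand), an accessory subunit of the membrane arm, had 23.0, 24.3 and 28.9 CPM in ox-LDL macrophages and 33.1, 44.0, 46.5, 29.3 and 52.6 CPM in ox-LDL monocytes. With vehicle it had 33.5, 24.8, 21.3, 24.5 and 22.9 CPM in macrophages and 29.4, 35.5 and 51.6 CPM in monocytes. The ox-LDL groups were apart by a narrow margin, and with vehicle only replicate A of the macrophages reached the monocyte range. edgeR put its log2 fold change at -0.78 ± 0.14 with ox-LDL (adjusted p = 0.000252) and -0.63 ± 0.15 with vehicle (adjusted p = 0.00234).

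Ndufs4 (ENSMUSG00000021764, chr13:114287795-114388258, minus strand), an accessory subunit whose loss in mice causes a fatal encephalopathy, averaged 20.1 ± 1.58 CPM in ox-LDL macrophages against 29.97 ± 7.42 CPM in ox-LDL monocytes. With vehicle it averaged 19.8 ± 3.82 CPM in macrophages and 28.3 ± 4.56 CPM in monocytes. Its log2 fold change was -0.63 ± 0.14 with ox-LDL (adjusted p = 0.00122) and -0.59 ± 0.14 with vehicle (adjusted p = 0.00213). Ndufa3 (ENSMUSG00000035674, chr7:3617373-3620327, plus strand), a small accessory subunit of the membrane arm, averaged 49.6 ± 3.32 against 70.3 ± 12.4 CPM with ox-LDL and 47.5 ± 5.69 against 69.6 ± 18.6 CPM with vehicle, macrophages before monocytes. For Ndufa3 the log2 fold change was -0.56 ± 0.11 with ox-LDL (adjusted p = 0.000597) and -0.62 ± 0.16 with vehicle (adjusted p = 0.00313). For both genes the ox-LDL groups did not overlap, and with vehicle replicate A of the macrophages reached into the monocyte range.

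Ndufb7, an accessory subunit of the intermembrane face, was also lower under both treatments (-0.51 with ox-LDL and -0.51 with vehicle), and Ndufv3, an accessory subunit beside the NADH site, was higher under both (0.51 and 0.46). Ndufb2 (ENSMUSG00000002416, chr6:39592574-39603382, plus strand), an accessory subunit of the membrane arm and the lowest of complex I in TPM, averaged 5.33 ± 0.976 CPM in ox-LDL macrophages against 3.42 ± 0.920 CPM in ox-LDL monocytes, and 4.39 ± 0.767 against 3.01 ± 0.744 CPM with vehicle. Its log2 fold change was 0.58 ± 0.20 with ox-LDL (adjusted p = 0.0199) and 0.47 ± 0.20 with vehicle (adjusted p = 0.0481). The groups overlapped, and its calls were among the least stable. With vehicle the call was lost without any 1 of monocyte replicates 1, 2, 4 and 6 or macrophage replicates A, B and E (adjusted p = 0.0515 to 0.110), and with ox-LDL it was lost without monocyte replicate 9 (adjusted p = 0.0609).

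In complex III the hinge protein and 1 of the 2 core proteins were lower in macrophages. Of its 8 subunits 25% were called with ox-LDL and 37.5% with vehicle, below the 65.4% and 63.7% over all genes. Uqcrh (ENSMUSG00000063882, chr4:116066965-116075071, minus strand), the hinge protein that helps cytochrome c dock, had 32.0, 36.4 and 38.5 CPM in ox-LDL macrophages and 38.0, 60.0, 52.6, 43.2 and 74.9 CPM in ox-LDL monocytes. With vehicle, Uqcrh had 50.4, 34.8, 34.1, 32.0 and 34.7 CPM in macrophages and 37.6, 50.2 and 98.4 CPM in monocytes. With ox-LDL only monocyte replicate 7 reached the macrophage range, and with vehicle only macrophage replicate A reached the monocyte range, where replicate 5 stood far above the rest. The log2 fold change was -0.64 ± 0.15 with ox-LDL (adjusted p = 0.00189) and -0.66 ± 0.21 with vehicle (adjusted p = 0.0143), and the vehicle call was lost without macrophage replicate C (-0.59, adjusted p = 0.0579).

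Uqcrc2 (ENSMUSG00000030884, chr7:120635176-120659524, plus strand), a core protein that faces the matrix, had 63.7, 67.3 and 75.1 CPM in ox-LDL macrophages and 98.1, 94.9, 98.6, 72.9 and 90.3 CPM in ox-LDL monocytes. With vehicle, Uqcrc2 had 80.6, 66.7, 63.2, 70.4 and 65.6 CPM in macrophages and 75.8, 86.4 and 104 CPM in monocytes. Only monocyte replicate 10 with ox-LDL, and 2 of the vehicle monocyte libraries, reached the macrophage range. On the log2 scale the change was -0.47 ± 0.10 with ox-LDL (adjusted p = 0.000723) and -0.41 ± 0.11 with vehicle (adjusted p = 0.00438). Its partner Uqcrc1 averaged 383 ± 43.9 against 436 ± 71.6 CPM with ox-LDL and 371 ± 35.7 against 356 ± 20.6 CPM with vehicle and was not called (adjusted p = 0.0986 and 0.863).

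Uqcr11 (ENSMUSG00000020163, chr10:80402997-80406830, minus strand), a small membrane subunit, was the 1 member of complex III that was higher in macrophages, with vehicle. It had 73.2, 59.9, 62.6, 63.8 and 67.8 CPM in vehicle macrophages and 36.8, 41.8 and 65.1 CPM in vehicle monocytes, and 62.4, 71.9 and 75.3 CPM in ox-LDL macrophages and 46.6, 55.6, 70.9, 39.7 and 61.3 CPM in ox-LDL monocytes. With vehicle, macrophage replicates A and E stood above all monocytes, and replicate 5 alone of the monocytes reached the macrophage range. This came to a log2 fold change of 0.30 ± 0.13 with ox-LDL (adjusted p = 0.0582) and 0.47 ± 0.14 with vehicle (adjusted p = 0.0081). Uqcr10, the small subunit of highest TPM in the complex, did not pass the test (-0.05, adjusted p = 0.695; -0.13, adjusted p = 0.481).

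In complex IV the subunits common to all tissues mostly did not pass the test, with Cox5b and Cox8a as the exceptions under both treatments. The share called was 18.2% of these 11 subunits under each treatment, where 65.4% and 63.7% of all genes were called. Cox5b (ENSMUSG00000061518, chr1:36691449-36693681, plus strand), a zinc-binding subunit on the matrix side, had 50.9, 54.4 and 60.5 CPM in ox-LDL macrophages and 64.8, 90.5, 75.5, 64.5 and 94.7 CPM in ox-LDL monocytes. With vehicle, Cox5b had 61.3, 52.1, 48.7, 52.6 and 50.2 CPM in macrophages and 57.2, 74.0 and 113 CPM in monocytes. The ox-LDL groups did not overlap, and with vehicle the overlap came from macrophage replicate A and the lowest monocyte library. edgeR put its log2 fold change at -0.56 ± 0.11 with ox-LDL (adjusted p = 0.000491) and -0.63 ± 0.14 with vehicle (adjusted p = 0.00172).

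Cox8a (ENSMUSG00000035885, chr19:7215153-7217616, minus strand), the smallest subunit in its form common to all tissues, had 166, 171 and 184 CPM in ox-LDL macrophages and 76.4, 122, 92.5, 98.0 and 151 CPM in ox-LDL monocytes. With vehicle it had 180.5, 149, 149, 154 and 153 CPM in macrophages and 75.5, 112 and 155 CPM in monocytes. Every ox-LDL macrophage library stood above every ox-LDL monocyte library, and with vehicle replicate 5 alone of the monocytes reached the macrophage range. The log2 fold change was 0.63 ± 0.14 with ox-LDL (adjusted p = 0.00153) and 0.42 ± 0.14 with vehicle (adjusted p = 0.0182), and the vehicle call was lost without the erythroid-low libraries (0.31, adjusted p = 0.0538).

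The abundant subunits Cox6a1 and Cox4i1 did not pass the test. Cox6a1 averaged 209 ± 12.4 against 196 ± 35.8 CPM with ox-LDL and 211 ± 20.04 against 190.0 ± 41.8 CPM with vehicle, macrophages before monocytes (adjusted p = 0.791 and 0.639). Cox4i1, the subunit through which ATP slows the enzyme, averaged 412 ± 21.1 against 347 ± 58.9 CPM with ox-LDL and 410.0 ± 39.0 against 355 ± 79.9 CPM with vehicle (adjusted p = 0.142 and 0.407). Without monocyte replicate 5 the vehicle difference of Cox4i1 was 0.30 on the log2 scale (adjusted p = 0.0219). Ndufa4 averaged 61.7 ± 5.02 against 63.5 ± 16.0 CPM with ox-LDL and 59.5 ± 10.7 against 55.0 ± 13.8 CPM with vehicle, and it was not called either.

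**Figure D3:**
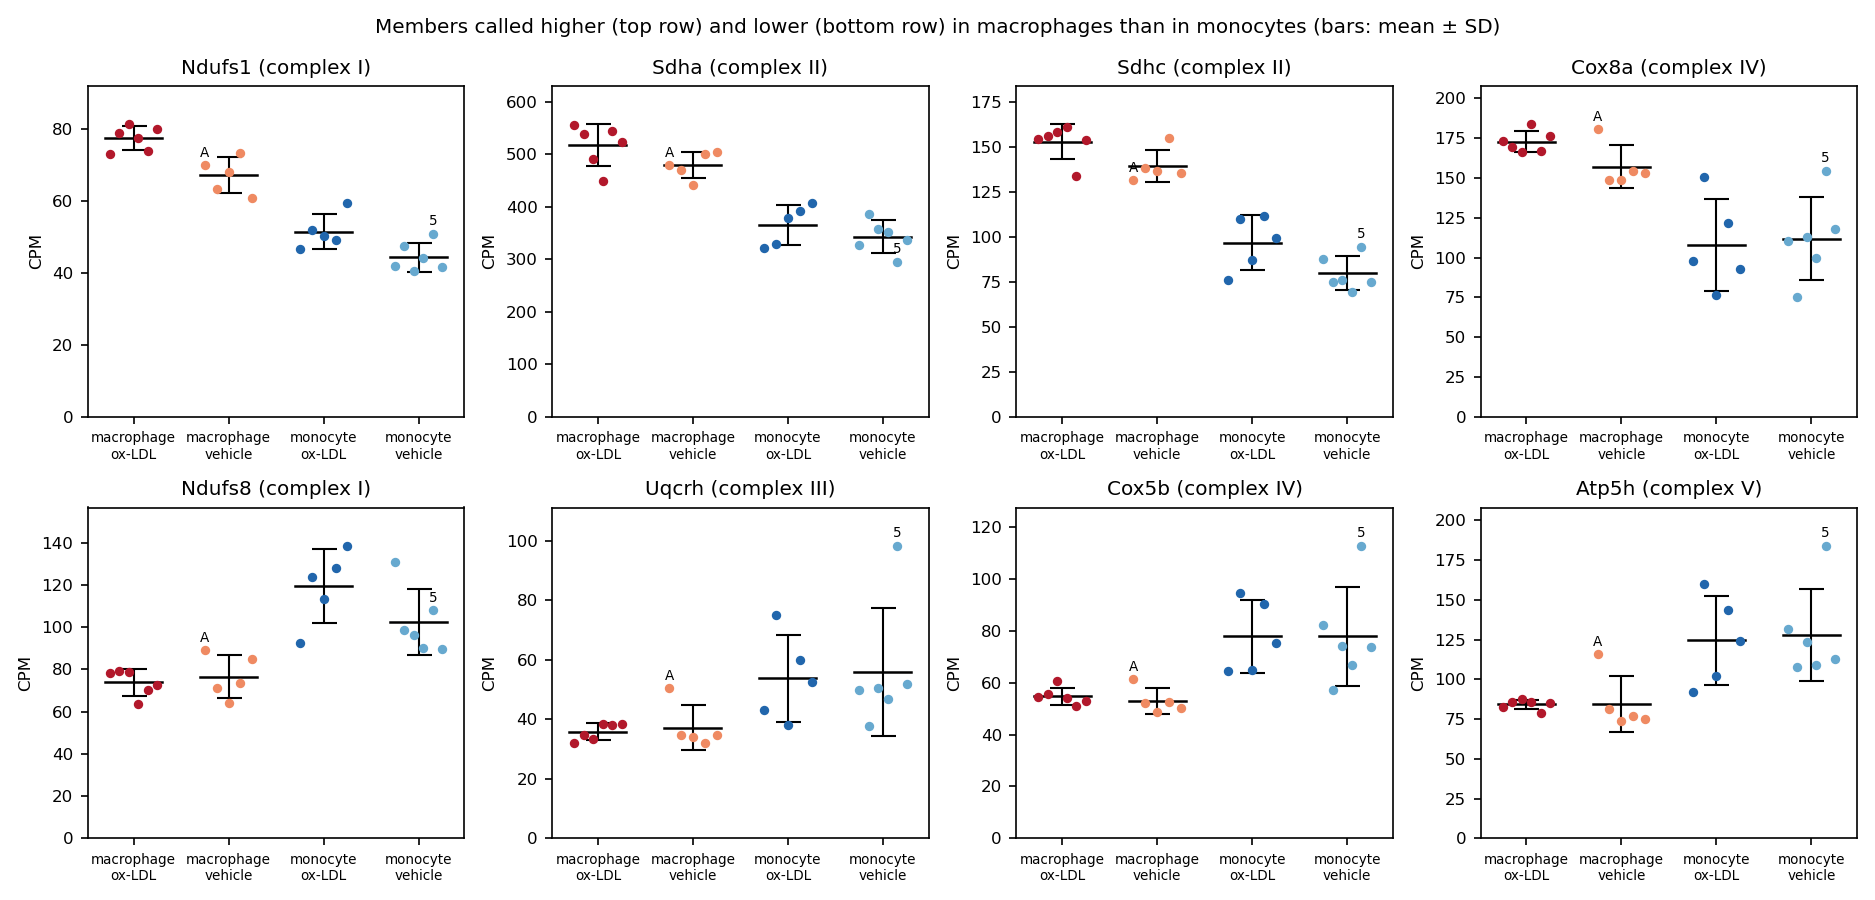
CPM (y axis) of 8 subunit genes in each library of the 4 groups (x axis), with the mean and SD as bars; the upper row shows genes higher in macrophages (Ndufs1, Sdha, Sdhc and Cox8a) and the lower row genes lower in macrophages (Ndufs8, Uqcrh, Cox5b and Atp5h). In Sdhc, Sdha and Ndufs1 no macrophage and monocyte points overlap, while replicates A and 5 stand high in Uqcrh and Atp5h.

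Several complex IV subunits have a second gene used in muscle, testis or lung. These tissue isoforms stood near the floor in all groups, and 3 of them differed between cell types at these low levels. Of those tested, 100% of 3 were called with ox-LDL and 50% of 4 with vehicle, where 65.4% and 63.7% of all genes were. Cox6a2 (ENSMUSG00000030785, chr7:128205435-128206387, minus strand), the heart and skeletal muscle form, had 0.328, 0.501 and 0.751 CPM in ox-LDL macrophages and 2.76, 2.28, 1.36, 1.48 and 0.731 CPM in ox-LDL monocytes. With vehicle, Cox6a2 had 0.382, 0.275, 0.828, 0.637 and 0.632 CPM in macrophages and 0.615, 1.55 and 3.39 CPM in monocytes. Among monocytes the erythroid-low libraries were the highest with either treatment, and the lowest, a neutrophil-high library, reached the macrophage range. On the log2 scale the change was -1.76 ± 0.35 with ox-LDL (adjusted p = 0.000576) and -1.72 ± 0.42 with vehicle (adjusted p = 0.00268). By TPM, Cox6a2 made up 0.259 ± 0.079% and 0.270 ± 0.114% of the Cox6a1 and Cox6a2 total in ox-LDL and vehicle macrophages, against 0.957 ± 0.557% and 0.974 ± 0.557% in ox-LDL and vehicle monocytes. Of its exon bases 10.3% overlap the integrin gene Itgad on the other strand, and whether counting used strand is not given in the sources used here.

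Cox6b2 (ENSMUSG00000051811, chr7:4751792-4753094, minus strand), the testis form, had 0.223, 0.307 and 0.609 CPM in ox-LDL macrophages and 1.53, 0.873, 1.07, 1.19 and 2.19 CPM in ox-LDL monocytes. With vehicle, Cox6b2 had 0.764, 0.715, 0.284, 0.319 and 0.542 CPM in macrophages and 0.943, 1.63 and 1.87 CPM in monocytes. The groups did not overlap under either treatment. This came to a log2 fold change of -1.97 ± 0.33 with ox-LDL (adjusted p = 0.000127) and -1.59 ± 0.32 with vehicle (adjusted p = 0.0006). Its share of the Cox6b1 and Cox6b2 total was 0.154 ± 0.059% and 0.247 ± 0.103% in ox-LDL and vehicle macrophages, against 0.630 ± 0.209% and 0.724 ± 0.167% in ox-LDL and vehicle monocytes.

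Cox7a1 (ENSMUSG00000074218, chr7:30184144-30186078, plus strand), a heart and skeletal muscle form, went the other way with ox-LDL. It had 0.348, 0.599 and 0.997 CPM in ox-LDL macrophages and 0.161, 0.243, 0.384, 0.134 and 0.237 CPM in ox-LDL monocytes. With vehicle, Cox7a1 had 0.764, 0.495, 0.450, 0.637 and 0.451 CPM in macrophages and 0.0405, 0.229 and 0.549 CPM in monocytes. All but a single macrophage library lay above the ox-LDL monocytes, and with vehicle replicate 5 of the monocytes reached the macrophage range. edgeR put its log2 fold change at 1.47 ± 0.37 with ox-LDL (adjusted p = 0.00326) and 1.11 ± 0.47 with vehicle (adjusted p = 0.0512), and the vehicle value was 1.54 (adjusted p = 0.00798) without monocyte replicate 5. Its share of the Cox7a1 and Cox7a2 total was 1.74 ± 0.578% and 1.58 ± 0.270% in ox-LDL and vehicle macrophages, against 0.673 ± 0.276% and 0.734 ± 0.416% in ox-LDL and vehicle monocytes.

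The partners used in most tissues did not pass the test in either comparison. Cox6b1 averaged 149 ± 3.63 against 139 ± 24.5 CPM with ox-LDL and 135 ± 14.6 against 134 ± 32.9 CPM with vehicle. Cox7a2 averaged 66.3 ± 5.74 against 61.3 ± 15.7 CPM with ox-LDL and 61.2 ± 5.72 against 55.0 ± 10.9 CPM with vehicle. Cox4i2, the lung and hypoxia form of Cox4i1, averaged 0.142 ± 0.137, 0.174 ± 0.0902, 0.178 ± 0.150 and 0.186 ± 0.155 CPM in ox-LDL macrophages, vehicle macrophages, ox-LDL monocytes and vehicle monocytes. Ndufa4l2, a hypoxia-induced relative of Ndufa4, had 47 counts over all 22 libraries and 0 in every ox-LDL macrophage library. Cox8b, the muscle form of Cox8a, had 4 counts in all, Cox8c had 1 and Cox7b2 had 0.

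**Figure D4:**
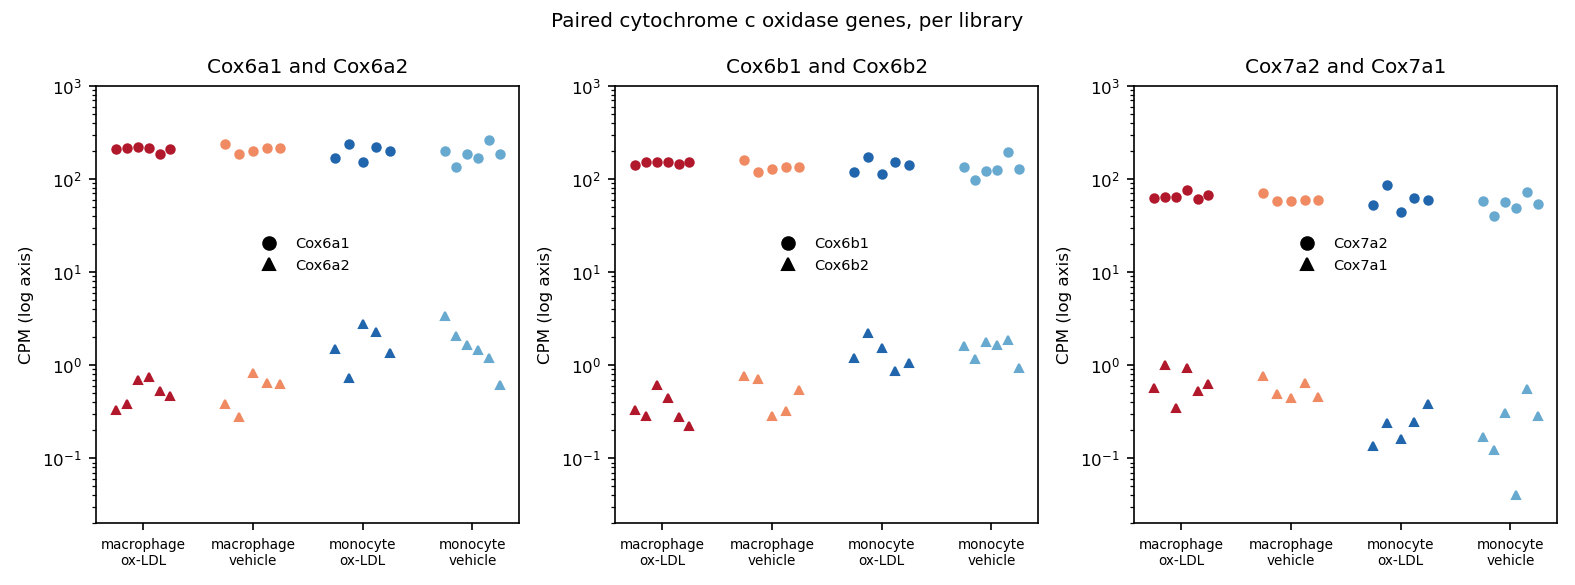
CPM (log axis, y) of 3 pairs of complex IV isoform genes in each library of the 4 groups (x axis): Cox6a1 and Cox6a2, Cox6b1 and Cox6b2, and Cox7a2 and Cox7a1. The common forms lie at 39.9 CPM or more in every library, while the tissue forms lie at 3.39 CPM or less, with Cox6a2 and Cox6b2 lower and Cox7a1 higher in ox-LDL macrophages than in ox-LDL monocytes.

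In complex V the membrane part and the peripheral stalk held 11 tested subunits, of which 1 was higher and 4 lower in macrophages with ox-LDL, and 0 higher and 5 lower with vehicle. Of the 5 subunits of F1, which is the head with the central stalk, 1 was higher with ox-LDL and 2 were lower with vehicle. The shares called were 45.5% under each treatment for the membrane part and peripheral stalk. For F1 they were 20% with ox-LDL and 40% with vehicle, and over all genes 65.4% and 63.7%. Atp5h (ENSMUSG00000034566, chr11:115415689-115419962, minus strand), subunit d of the peripheral stalk, had 79.1, 85.2 and 87.4 CPM in ox-LDL macrophages and 102, 144, 124, 92.3 and 159.7 CPM in ox-LDL monocytes. With vehicle it had 116, 81.1, 73.9, 76.9 and 75.1 CPM in macrophages and 108, 118 and 184 CPM in monocytes. The ox-LDL groups did not overlap, and with vehicle only replicate A of the macrophages reached the monocyte range. The log2 fold change was -0.62 ± 0.13 with ox-LDL (adjusted p = 0.000707) and -0.67 ± 0.16 with vehicle (adjusted p = 0.00209). The stalk subunits lower under both treatments also included Atp5f1 (subunit b; -0.36 with ox-LDL, -0.40 with vehicle) and Atp5j (coupling factor F6; -0.48 and -0.44), which was named after its values were seen, for the promoter shown above. The vehicle call of Atp5f1 was lost without macrophage replicate C (-0.35, adjusted p = 0.0677).

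Atp5l (ENSMUSG00000038717, chr9:44912557-44920742, minus strand), subunit g of the membrane part, averaged 29.0 ± 3.58 CPM in ox-LDL macrophages against 43.5 ± 13.1 CPM in ox-LDL monocytes, and 27.5 ± 7.95 CPM in vehicle macrophages against 40.2 ± 14.2 CPM in vehicle monocytes. On the log2 scale the change was -0.64 ± 0.17 with ox-LDL (adjusted p = 0.00454) and -0.62 ± 0.22 with vehicle (adjusted p = 0.0228). The vehicle call was lost without monocyte replicate 5 (-0.36, adjusted p = 0.0674) and without any 1 of macrophage replicates B to E (adjusted p = 0.0571 to 0.0877). Atp5e (ENSMUSG00000016252, chr2:174461072-174464105, minus strand), subunit ε of the central stalk, averaged 47.7 ± 4.73 against 56.4 ± 17.3 CPM with ox-LDL and 42.9 ± 9.12 against 55.9 ± 14.7 CPM with vehicle. Its log2 fold change was -0.30 ± 0.17 with ox-LDL (adjusted p = 0.132) and -0.46 ± 0.18 with vehicle (adjusted p = 0.0387), and the vehicle call was lost without monocyte replicate 3 or 5 and without any 1 of macrophage replicates B to E (adjusted p = 0.0658 to 0.136).

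The α and β subunits of the catalytic head were each called under 1 treatment, in opposite directions. Atp5a1 (ENSMUSG00000025428, chr18:77773729-77782869, plus strand; α) averaged 813 ± 62.0 CPM in ox-LDL macrophages against 632 ± 77.4 CPM in ox-LDL monocytes, and 732 ± 51.9 CPM in vehicle macrophages against 608 ± 30.6 CPM in vehicle monocytes. Its log2 fold change was 0.30 ± 0.10 with ox-LDL (adjusted p = 0.0193) and 0.19 ± 0.09 with vehicle (adjusted p = 0.074). The ox-LDL call was lost when counts were scaled to library totals (0.20, adjusted p = 0.0903) and without the neutrophil-high monocytes (0.21, adjusted p = 0.0963), while the vehicle value passed without monocyte replicate 5 (0.25, adjusted p = 0.0169) or macrophage replicate C (0.27, adjusted p = 0.0321). Atp5b (ENSMUSG00000025393, chr10:128083273-128090391, plus strand; β) averaged 799 ± 38.4 against 822 ± 99.2 CPM with ox-LDL and 717 ± 38.4 against 811 ± 44.4 CPM with vehicle. Its log2 fold change was -0.10 ± 0.10 with ox-LDL (adjusted p = 0.395) and -0.26 ± 0.09 with vehicle (adjusted p = 0.0216), and its vehicle call was lost without macrophage replicate B (adjusted p = 0.0595), C (-0.18, adjusted p = 0.123) or E (adjusted p = 0.0567).

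Subunit c, which forms the rotor ring, is made from 3 genes that encode the same mature protein. Atp5g2 (ENSMUSG00000062683, chr15:102662864-102672352, minus strand) had 28.5, 33.2 and 37.5 CPM in ox-LDL macrophages and 15.4, 26.1, 15.6, 16.4 and 29.9 CPM in ox-LDL monocytes. With vehicle, Atp5g2 had 40.1, 33.3, 30.5, 32.5 and 31.2 CPM in macrophages and 15.3, 23.8 and 37.5 CPM in monocytes. Monocyte replicates 7, 9 and 10 lay far below the macrophages, while replicate 11, and replicate 5 with vehicle, reached their range. This came to a log2 fold change of 0.63 ± 0.18 with ox-LDL (adjusted p = 0.00742) and 0.37 ± 0.18 with vehicle (adjusted p = 0.0894), and the vehicle value was 0.56 (adjusted p = 0.0048) without monocyte replicate 5. By TPM, Atp5g2 made up 20.2 ± 1.81% and 22.2 ± 0.350% of the 3 genes in ox-LDL and vehicle macrophages, against 16.1 ± 1.24% and 19.5 ± 2.07% in ox-LDL and vehicle monocytes. Atp5g3 held the major share, 63.5 ± 2.27% and 61.2 ± 1.02% in ox-LDL and vehicle macrophages, against 63.7 ± 2.15% and 64.4 ± 1.60% in ox-LDL and vehicle monocytes. Neither Atp5g3 nor Atp5g1 was called (adjusted p = 0.0648 and 0.428 for Atp5g3, 0.843 and 0.104 for Atp5g1), although Atp5g3 passed with ox-LDL without monocyte replicate 8 (0.39, adjusted p = 0.0299) or 11 (0.42, adjusted p = 0.00967), and Atp5g1 passed with vehicle without monocyte replicate 1 (0.34, adjusted p = 0.0103) or 5 (0.32, adjusted p = 0.0473).

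The stability of the calls over the family was uneven. With ox-LDL 25 of the 31 called subunits were called in all 18 alternatives, and with vehicle 17 of 29. The 6 lost at least once with ox-LDL were Ndufa5, Ndufb9, Ndufs7, Ndufb10, Atp5a1 and Ndufb2. Ndufa5, an accessory subunit of the matrix arm, lost its ox-LDL call without any 1 of 9 libraries (adjusted p = 0.0519 to 0.0962) and its vehicle call without any 1 of 5 (adjusted p = 0.0785 to 0.0892). Ndufs7 lost its ox-LDL call without macrophage replicate I or monocyte replicate 7 or 10 (adjusted p = 0.0508 to 0.0685) and its vehicle call without macrophage replicate E or monocyte replicate 2, 3, 4 or 6 (adjusted p = 0.0518 to 0.0614). Ndufb9 lost its ox-LDL call without macrophage replicate G or K or monocyte replicate 8 (adjusted p = 0.0530 to 0.0627) or, right at the threshold, monocyte replicate 11, and Ndufb10 without macrophage replicate J or K (adjusted p = 0.0502 and 0.0506). With vehicle, Ndufa12 lost its call without monocyte replicate 3, 4 or 6 (adjusted p = 0.0628 to 0.0677), and Atp5j2, a small membrane subunit of complex V, without monocyte replicate 5 or any 1 of macrophage replicates B to E (adjusted p = 0.0745 to 0.136). Of the subunits not called, 10 of 47 with ox-LDL and 21 of 50 with vehicle passed in at least 1 alternative.

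The treatment question was whether ox-LDL changes these genes in either cell type. In macrophages 0 of 78 subunits were called, where 2.35% of 14543 genes were (342 genes), and in 0 subunits did the groups not overlap, against 3.29% of all genes. The median log2 fold change of the subunits, ox-LDL over vehicle, was 0.07, against 0.00 over all genes tested, and 62 of 78 values were positive (47 of 78 when counts were scaled to library totals, with a median of 0.02 against -0.05 over all genes). At an unadjusted p under 0.05 were 2062 of all 14543 genes and 10 of the 78 subunits. These 10 were all higher with ox-LDL: Ndufs1, Sdhc, Uqcr10, Uqcrfs1, Cox6b1, Cox7b, Cox8a, Atp5a1, Atp5b and Atp5g3. By complex, 27 of 36 values were positive in complex I, 4 of 4 in complex II, 6 of 8 in complex III, 11 of 14 in complex IV and 14 of 16 in complex V.

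Ndufs1 had the smallest p. It had 73.3, 78.4 and 81.5 CPM in ox-LDL macrophages and 70.1, 63.4, 68.2, 73.3 and 60.9 CPM in vehicle macrophages. The groups overlapped, with a log2 fold change of 0.21 ± 0.06 (adjusted p = 0.087). Uqcr10, the small complex III subunit, had 61.4, 65.3 and 71.7 CPM in ox-LDL macrophages and 63.3, 54.7, 54.8, 57.1 and 55.1 CPM in vehicle macrophages. Replicate A was the 1 vehicle library within the ox-LDL range, and the log2 fold change was 0.21 ± 0.06 (adjusted p = 0.111). DESeq2 called both (adjusted p = 0.0261 for Ndufs1 and 0.0442 for Uqcr10) and no other subunit. Without vehicle replicate A, edgeR called 3: Atp5g3 (0.27, adjusted p = 0.0293), Cox7b (0.38, adjusted p = 0.035) and Uqcr10 (0.26, adjusted p = 0.0469). The median of the subunits was then 0.16, and 35 were at an unadjusted p under 0.05, where 2114 of all 14736 genes were. Without vehicle replicate C 4 subunits were at that level, and 3 when counts were scaled to library totals.

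In monocytes 0 of 78 subunits were called, where 0.0241% of 16575 genes were (4 genes), and in 0 subunits did the groups not overlap, against 1.57% of all genes. The median log2 fold change was 0.12, against 0.00 over all genes tested, and 65 values were positive (56 when scaled to library totals). In complex I 35 of 36 were positive, in complex II 4 of 4, in complex III 7 of 8, in complex IV 8 of 14 and in complex V 11 of 16. At an unadjusted p under 0.05 were 1718 of all 16575 genes and 4 of the 78 subunits. These 4 were Ndufa12, Ndufb8, Ndufb6 and Uqcrc1, all higher with ox-LDL, with adjusted p between 0.382 and 0.461. DESeq2 gave 3 subunits at that level and also called 0. The 4 became 12 without ox-LDL replicate 10, without vehicle replicate 5 or without the neutrophil-high libraries, 8 without vehicle replicate 1, and 0 without ox-LDL replicate 9. With the 3 library sets as a covariate, 140 genes were called higher and 87 lower over all genes, and 0 subunits were called, with 6 at an unadjusted p under 0.05. With the neutrophil-high set alone as a covariate, 85 genes were higher and 37 lower, and again 0 subunits were called, with 7 at that level.

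Ndufa12, an accessory subunit of the matrix arm chosen here for its p, had 40.7, 42.1, 50.4, 28.4 and 50.1 CPM in ox-LDL monocytes and 24.8, 28.3 and 39.3 CPM in vehicle monocytes. All ox-LDL libraries but replicate 10 stood above all of the vehicle libraries. The log2 fold change was 0.47 ± 0.18 (adjusted p = 0.382). The direction in monocytes was not the same in the 3 library sets. Between the libraries outside both sets (ox-LDL replicates 8 and 9, vehicle replicates 3 and 4), 74 of 78 subunits had the higher mean with ox-LDL, with a median log2 ratio of 0.32. Among neutrophil-high libraries 31 of 78 had the higher mean with ox-LDL (median -0.04), and among erythroid-low libraries 38 of 78 (median -0.01). These sets hold 1 or 2 libraries per treatment, and no test was made within them. Leaving out a library moved the median of the fitted values between 0.03 without ox-LDL replicate 11 and 0.24 without vehicle replicate 5.

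**Figure D5:**
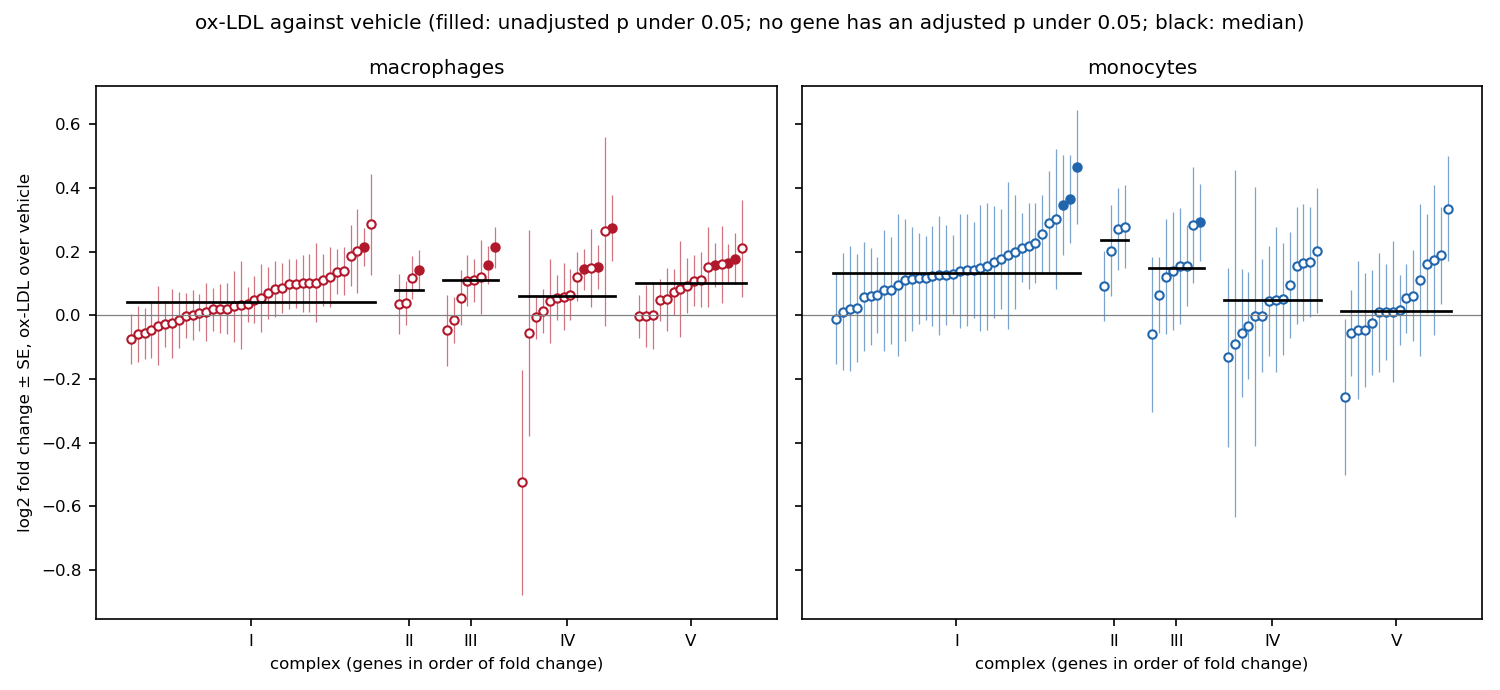
Log2 fold change, ox-LDL over vehicle, of each tested subunit gene (points, SE as bars) by complex (x axis), in macrophages (left) and monocytes (right); filled points have an unadjusted p under 0.05 and black lines are medians. None passes the adjusted threshold, most values lie above 0 (62 of 78 in macrophages, 65 of 78 in monocytes), and the errors are wider in monocytes.

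Whether ox-LDL acted differently in macrophages and in monocytes was tested as an interaction over all 22 libraries. It was called in 0 of 79 subunits, where 0.063% of 17466 genes were called. An unadjusted p under 0.05 was found in 1261 genes and in 0 subunits. DESeq2 also called 0 subunits and had 0 at an unadjusted p under 0.05. Without ox-LDL monocyte replicate 10 there were 6 at that level, and without the neutrophil-high libraries 7, all negative (a smaller ox-LDL value in macrophages), and still 0 were called. The smallest adjusted p was 0.772. A subunit called between cell types under 1 treatment and not under the other was thus not shown to differ between treatments. The 54 subunits with a positive value and the 5 with a negative value in both cell types, of 78, are given as a count of signs only.

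Genes next to the subunits were looked at from lists of their partners. The mitochondrially encoded subunits were lower in macrophages: 9 of 12 tested with ox-LDL (median log2 fold change -1.13) and 7 of 12 with vehicle (median -1.09), and 0 were higher. Over all genes tested 35% and 35.1% were called lower, with medians of -0.07 and -0.09. The complex I core subunit mt-Nd2 was at -1.77 ± 0.19 with ox-LDL (adjusted p = 2.90e-06) and -1.49 ± 0.24 with vehicle (adjusted p = 9.17e-05). All genes of mitochondrial DNA held 0.0828% to 0.190% of the counts in macrophages and 0.206% to 0.335% in monocytes. Cycs, the cytochrome c that carries electrons to complex IV, averaged 20.4 ± 2.25 CPM in ox-LDL macrophages against 38.0 ± 8.99 CPM in ox-LDL monocytes, and 17.4 ± 2.19 against 27.5 ± 5.23 CPM with vehicle. Its log2 fold change was -0.96 ± 0.15 with ox-LDL (adjusted p = 7.00e-05) and -0.74 ± 0.14 with vehicle (adjusted p = 0.000322).

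Of 15 complex I assembly factors 3 were higher and 7 lower in macrophages with ox-LDL, and 3 higher and 6 lower with vehicle. The shares called, 66.7% and 60%, were near those over all genes (65.4% and 63.7%). Nubpl, which delivers iron-sulfur clusters to complex I, was higher (0.90 ± 0.15 with ox-LDL, 0.94 ± 0.19 with vehicle), and Acad9, which is needed for its membrane arm, was lower (-0.79 ± 0.12 and -0.95 ± 0.11). For complexes II to V, 7 were higher and 9 lower of 35 tested with ox-LDL, and 8 higher and 9 lower of 36 with vehicle, which is 45.7% and 47.2% called. Cox17, the copper chaperone of complex IV, was lower (-1.77 ± 0.20 with ox-LDL and -2.09 ± 0.25 with vehicle).

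Sdhaf1 (ENSMUSG00000074211, chr7:30321406-30323895, minus strand), which helps insert iron-sulfur clusters into Sdhb, had 0.952, 1.15 and 1.52 CPM in ox-LDL macrophages and 11.5, 11.7, 12.3, 7.05 and 8.60 CPM in ox-LDL monocytes. With vehicle, Sdhaf1 had 1.36, 1.02, 0.876, 1.00 and 0.835 CPM in macrophages and 7.87, 10.9 and 15.01 CPM in monocytes. Every macrophage library lay far below every monocyte library, and the log2 fold change was -3.18 ± 0.19 with ox-LDL (adjusted p = 1.17e-08) and -3.55 ± 0.21 with vehicle (adjusted p = 6.41e-09). Of its exon bases 69.6% overlap E130208F15Rik on the other strand, which had 0 counts in every library. Sdhaf2, which attaches the flavin to Sdha, was lower (-0.91 and -0.84), and Sdhaf4, which binds the flavinated Sdha, was higher (0.70 and 0.96). Cox7a2l, which joins complexes III and IV into supercomplexes, was lower with ox-LDL (-0.36, adjusted p = 0.0236) and not called with vehicle (-0.29, adjusted p = 0.132). Its ox-LDL call was lost without macrophage replicate G (adjusted p = 0.0541) or H (adjusted p = 0.0545), and without monocyte replicate 4 its vehicle value passed (-0.38, adjusted p = 0.0455).

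Among 18 tested regulators of mitochondrial biogenesis, 8 were higher and 5 lower in macrophages with ox-LDL, and 6 higher and 4 lower with vehicle. The shares called were 72.2% and 55.6%, where 65.4% and 63.7% of all genes were. Ppargc1a, the coactivator PGC-1α, averaged 0.0318 ± 0.0376 CPM in ox-LDL macrophages against 2.76 ± 0.940 CPM in ox-LDL monocytes, and 0.0385 ± 0.0528 against 3.86 ± 1.21 CPM with vehicle, a fitted log2 fold change of -6.39 ± 0.57 and -6.65 ± 0.60 whose size depends on macrophage counts near 0. Its relative Ppargc1b was higher (1.87 ± 0.24 and 1.73 ± 0.21). Gabpb1, which encodes the β subunit of GABP, was lower (-1.79 ± 0.13 and -1.62 ± 0.12). None of the regulators was called for ox-LDL against vehicle in either cell type.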

How the data were processed

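Whole-transcript reads were aligned with STAR 2.7.9a and counted per gene with featureCounts 2.0.3 on GRCm38, per the submitters' processing notes. The annotation release, the strand setting and the handling of reads with several matches are stated in none of the sources used here, and many subunit genes have processed pseudogenes whose reads could be shared with them. The authors deposited raw counts per gene and, beside them, CPM, FPKM and TPM. The deposited CPM, FPKM and TPM values followed from the deposited counts and gene lengths, with 0 departures. Gene positions come from the deposited files; among 55227 genes also in GENCODE M21, start and end matched for 99.4%. Of the members, 34 shared exon bases with another gene and 14 shared over 10% of them, 3 on the same strand.

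Counts were tested in R 4.3.3 with edgeR 4.0.16 (quasi-likelihood test, TMM factors, filterByExpr), on the libraries of each comparison, or on all 22 for the interaction. P-values were adjusted by Benjamini-Hochberg over all genes tested, with a threshold of 0.05. CPM in the text is the count scaled with TMM factors over all 22 libraries, and TPM is as deposited. Library totals of 37330389 to 50257111 counts limit precision little except for the tissue isoforms. Members and gene lists were chosen with earlier results of these data known. In each comparison and complex, up to 3 called members of at least 5 CPM with the largest absolute fold change were named, or the member of highest TPM where none was called. The members of highest and lowest TPM and the isoform sets were also named, and others were named after their values were seen. Alternatives were scaling by total counts, DESeq2 1.42.0, limma 3.58.1 (voom), no low-count filter, 1 fit over all 4 groups, leaving out the neutrophil-high monocytes or taking them as a covariate, and leaving out each library. Taking the 3 monocyte library sets as a covariate and leaving out the erythroid-low libraries were chosen after seeing the data. The edgeR step was also tested on simulated data.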

Additional observations from a re-analysis of the deposited data

Results flagged for a closer look

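Of 152 pairs of a group and a measure (the named genes and the sums over complexes), 24 had a library far from the rest of its group by Dixon's gap, where chance gives about 1 in 20. Vehicle macrophage replicate A was the highest of its group in 12 of them. Its summed TPM of complex I was 3876, against 3598 to 3673 in the other 4 libraries. In CPM, replicate A had 58.6 of Atp5e (the others 36.1 to 41.5), 149 of Atp5g3 (108 to 119), 116 of Atp5h (73.9 to 81.1), 41.7 of Atp5l (23.8 to 24.4) and 40.1 of Atp5g2 (30.5 to 33.3) in complex V. In complex I it had 26.5 CPM of Ndufs4 (16.7 to 19.2) and 33.5 of Ndufb4 (21.3 to 24.8). In complexes III and IV it had 50.4 CPM of Uqcrh (32.0 to 34.8), 63.3 of Uqcr10 (54.7 to 57.1), 71.3 of Cox7a2 (57.5 to 60.0) and 180.5 of Cox8a (149 to 154).

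Vehicle monocyte replicate 5 was the highest of its group in 8. It had 97.9 CPM of Ndufa2 (the other 5 libraries 45.2 to 65.0), 105 of Ndufa3 (49.1 to 68.9), 65.1 of Uqcr11 (36.8 to 46.9), 98.4 of Uqcrh (37.6 to 51.9), 505 of Cox4i1 (267 to 355), 196.5 of Cox6b1 (98.7 to 135), 184 of Atp5h (108 to 132) and 68.5 of Atp5l (29.1 to 38.3). The other 4 were single genes: ox-LDL macrophage replicate J had 28.9 CPM of Ndufb4 (23.0 to 24.8), replicate K had 186 CPM of Cox6a1 (208 to 221) and 134 CPM of Sdhc (154 to 161), and vehicle macrophage replicate D had 155 CPM of Sdhc (132 to 138). Ribosomal protein genes also stood highest in replicates A and 5 within their groups, and their part in these values was not tested.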

How the results depend on the processing

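The cell type counts depended on the setting mainly with vehicle. The 12 subunits higher in vehicle macrophages became 7 when scaled to library totals, 21 without the neutrophil-high monocytes, and 8 to 27 when a library was left out (27 without monocyte replicate 5). The 17 lower became 11 to 19 (11 without macrophage replicate C). With ox-LDL the 12 higher ranged over 10 to 14 and the 19 lower over 17 to 25 when a library was left out. For ox-LDL in macrophages, 0 subunits called higher became 2 with DESeq2 and 0 to 3 when a library was left out (3 without vehicle replicate A); for ox-LDL in monocytes, and for the difference between cell types, every alternative run gave 0. Of 200 such counts 194 stayed the same or within 1.5 times and 6 moved. The 194 include counts that were 0 and stayed 0, for ox-LDL against vehicle and for the difference between cell types. The median of the subunits took the other sign in 6 of 18 alternatives between cell types with vehicle (-0.03 to 0.18), 1 of 18 with ox-LDL (-0.14 to 0.01) and 6 of 28 for the difference of the ox-LDL effect (-0.12 to 0.05), and in 0 for ox-LDL in macrophages (0.02 to 0.16) or monocytes (0.03 to 0.24). The 35 named members were also followed through every comparison and alternative, with 1 value for each. Of these values 3075 stayed as in the main fit, 35 gained a call and 32 lost one, and none changed direction while called. The 3075 include members that were not called in the main fit and stayed so. The cause was not tested. No paired analysis was possible because the groups share no replicate numbers; the monocyte library sets, which are no replicate numbers, were taken as a covariate instead. Tissue isoforms near 1 CPM or below, Cox17 and Ppargc1a rest on few counts, and overlapping genes and pseudogene copies could not be separated.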

Other observations

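Other mitochondrial gene lists were compared between macrophages and monocytes, where 65.4% of all genes were called with ox-LDL and 63.7% with vehicle. Of 17 genes of the citric acid cycle and pyruvate dehydrogenase, 9 were higher and 3 lower in macrophages with ox-LDL, and 6 higher and 2 lower with vehicle (70.6% and 47.1% called). Idh3b, a subunit of NAD-dependent isocitrate dehydrogenase, was higher at 0.89 ± 0.08 on the log2 scale with ox-LDL and 0.76 ± 0.09 with vehicle. Mdh2, malate dehydrogenase, was lower with ox-LDL (-0.74 ± 0.10). With vehicle Mdh2 also stood lower, at 204 to 232 CPM in macrophages against 263 to 393 CPM in monocytes. Median values of the list were 0.26 with ox-LDL and 0.20 with vehicle, against -0.07 and -0.09 over all genes tested. Of 11 inner membrane carriers and uncoupling genes, 2 were higher and 5 lower with ox-LDL, and 2 higher and 6 lower with vehicle (63.6% and 72.7% called). Atpif1, the inhibitor of the ATP synthase in reverse, was lower (-1.02 ± 0.13 and -0.91 ± 0.18), and Slc25a1, the citrate carrier, was higher (0.80 ± 0.09 and 0.70 ± 0.09). Of 14 outer membrane and import genes, 5 were higher and 3 lower with ox-LDL, and 7 higher and 2 lower with vehicle (57.1% and 64.3% called). Vdac1, the main outer membrane channel, was higher (1.55 ± 0.15 and 1.03 ± 0.11), while its relative Vdac3 was lower (-0.93 ± 0.12 and -0.67 ± 0.11).

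In macrophages, 4 genes of these lists and of the assembly factors passed the test for ox-LDL against vehicle, where 2.35% of 14543 genes did. They were 1 of 35 tested assembly factors of complexes II to V, 1 of 11 inner membrane genes and 2 of 14 outer membrane and import genes. Of 15 complex I assembly factors and of 17 genes of the citric acid cycle list, 0 were called. Ucp2, an inner membrane carrier of the uncoupling protein family, averaged 1670.1 ± 77.5 CPM with ox-LDL and 2254 ± 208 CPM with vehicle (SD, n = 6 and 5), a log2 fold change of -0.42 ± 0.07 (edgeR, adjusted p = 0.00421). The mitochondrial chaperones Hspd1 (0.35 ± 0.07, adjusted p = 0.0226) and Hspa9 (0.32 ± 0.07, adjusted p = 0.0364) were higher, as was Lrpprc, which stabilises mitochondrial mRNA (0.28 ± 0.06, adjusted p = 0.0213). In monocytes 0 genes of these lists were called.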
